A study of Mus musculus with 8 samples.

Results

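The genes described here carry out the handling and reception of GABA, the main inhibitory transmitter of the brain. They are Gad1 and Gad2, Slc32a1, Abat, Gphn, Gabbr1 and Gabbr2. The 7 were chosen by gene symbol and by no threshold on their values, with earlier results of these data known. All 7 were found in each of the 3 deposited expression tables. These list 15598 genes for the knockdown, 15598 for the cytoplasmic rescue and 15489 for the nuclear rescue. RNA was sequenced from mouse hippocampal cultures at 14 days in vitro, in 4 groups of 2 samples. All groups received an adeno-associated virus (AAV2/9) with the neuronal SynI promoter, and then siRNA for 4 days. The control group carried EGFP with non-targeting siRNA. The knockdown group carried EGFP with siRNA against Rbfox1 and Rbfox3. The cytoplasmic and nuclear rescue groups carried that same siRNA with Flag-tagged Rbfox1 in its cytoplasmic (Rbfox1_C) or nuclear (Rbfox1_N) splice isoform, both marked siMt in the labels. Rbfox proteins bind RNA and regulate splicing in the nucleus, and Rbfox1 also binds messenger RNA in the cytoplasm. The design asks which transcripts depend on them, and which isoform restores each.

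GABA is made from glutamate by the glutamate decarboxylases. Gad1 encodes GAD67, which supplies most of the GABA of a cell, and Gad2 encodes GAD65, which is enriched at nerve terminals and supports synthesis for release. Slc32a1 encodes the vesicular transporter that loads GABA and glycine into synaptic vesicles, and Abat encodes the mitochondrial transaminase that breaks GABA down. Gphn encodes gephyrin, the scaffold that holds GABA-A and glycine receptors at inhibitory synapses. Gabbr1 and Gabbr2 encode the subunits that pair to form the GABA-B receptor, a G protein-coupled receptor present on many neurons. The decarboxylases and the vesicular transporter mark inhibitory neurons, whereas the scaffold and the GABA-B subunits are also made by the excitatory cells that receive the signal.

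Every level below is the authors' FPKM for a group (fragments scaled to transcript length and sequencing depth), a scale on which genes can be compared. The samples of a group were combined by the authors, so no spread between samples can be given. Errors are those implied by the authors' test, the log2 fold change divided by its statistic, and the q-values are the authors', called below 0.05. Sequencing depth per sample is unknown. Separate cultures are not named in the labels for the samples within a group, and these errors may reflect technical spread alone. Over genes with at least 1 FPKM in both groups, the scaled median absolute deviation of log2 fold changes was set beside the median implied error. Against the knockdown it was 0.121 beside 0.155 in the cytoplasmic and 0.0942 beside 0.158 in the nuclear rescue. The errors of the rescues may therefore be too wide. In the knockdown against control it was 0.157 beside 0.146. In the check of the labels, Rbfox1 was 25.7 FPKM in control, 1.94 in knockdown, 16.1 in the cytoplasmic rescue and 38.2 in the nuclear rescue. Rbfox3 was 12.4 FPKM in control and between 1.53 and 1.59 in the other groups. Rbfox2, which the siRNA did not target, was 35.4 FPKM in control, 42.1 in knockdown, 33.2 in the cytoplasmic rescue and 17.7 in the nuclear rescue. Against the knockdown it fell in the nuclear rescue (log2 fold change -1.25, q = 1.72e-09 in the authors' deposited Cufflinks table), so the nuclear rescue differs from the knockdown in Rbfox2 as well as Rbfox1. Neuronal and glial markers were both present. Over the groups 10 pan-neuronal markers, the siRNA target Rbfox3 among them, summed to between 1735 and 1831 FPKM. The sum of 10 astrocyte markers was between 1437 and 1592 FPKM.

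In control cultures the 7 genes ranged from 9.36 to 126 FPKM. Gabbr1 was highest, followed by Gad1, Gphn, Abat, Gabbr2, Gad2 and Slc32a1, and this order of FPKM was the same in the knockdown and both rescue groups. Within the decarboxylases Gad1 (mm9 chromosome 2, 70327997 to 70440069) stood at 87.8 FPKM and Gad2 (chromosome 2, 22477847 to 22549397) at 24.4 FPKM in control, a ratio of 3.61. Gabbr1 (chromosome 17, 37182911 to 37211250) exceeded Gabbr2 (chromosome 4, 46676770 to 47004586) by a ratio of 3.22. Gphn lies on chromosome 12 (79327642 to 79785756), Abat on chromosome 16 (8513522 to 8621660) and Slc32a1 on chromosome 2 (158436494 to 158441483). The Gad1 locus of the tables spans 112 kb, against 40.7 kb for the RefSeq gene of the GRCm38 assembly. The tables list 2 further genes inside that locus, 1500002O10Rik and 4933404M02Rik, at 0.309 and 0.859 FPKM in control.

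**Figure D1:**
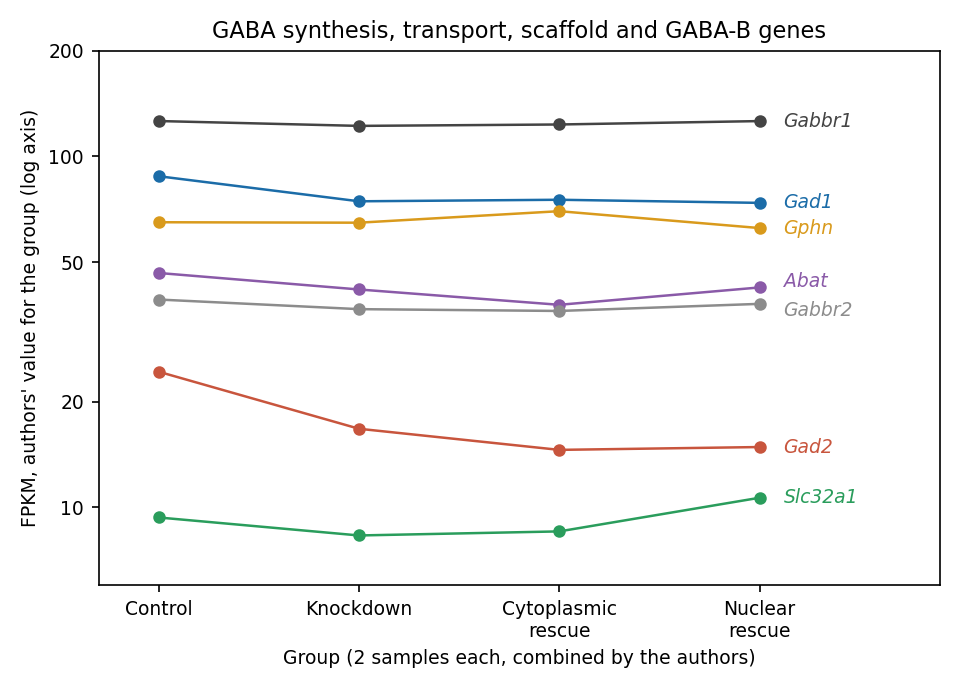
Level of each gene in the 4 groups, in FPKM on a log axis, each point being the authors' value for a group of 2 samples and lines joining the values of a gene. Gad2 drops from 24.4 in control to between 14.6 and 16.8 in the other groups, while the order of the genes is the same in all groups.

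Gad2 was the member that fell in the knockdown. Its FPKM was 24.4 in control, 16.8 in knockdown, 14.6 in the cytoplasmic rescue and 14.9 in the nuclear rescue, so the control group stood above the other three. The knockdown level was 68.8% of control. The authors' deposited table gives -0.54 on the log2 scale, implied error 0.133 (95% interval -0.80 to -0.28, q = 0.00813). Of genes with at least 1 FPKM in both groups, 1.68% had a lower fold change. Of the 7 genes 1 was called, against 2.35% of all genes in this comparison (1.58% lower and 0.776% higher). In bulk RNA, fewer inhibitory neurons and less Gad2 RNA per neuron cannot be told apart.

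Gad1 was 87.8 FPKM in control, 74.5 in knockdown, 75.3 in the cytoplasmic rescue and 73.7 in the nuclear rescue. As with Gad2, control was the highest group, but the fold change of -0.24 did not pass the test (95% interval -0.53 to 0.05, p = 0.110 before adjustment in the authors' deposited Cufflinks table). The smallest fall or rise that could have been called for Gad1 in this table was 0.51 on the log2 scale, a little less than the size of the change of Gad2. The log2 change of Gad2 lay 0.30 below that of Gad1, with a 95% interval of the difference from -0.69 to 0.09 if the errors of both genes are independent. The decarboxylases were therefore not separated by these errors. The ratio of Gad1 to Gad2 FPKM was 3.61 in control, 4.45 in knockdown, 5.16 in the cytoplasmic rescue and 4.96 in the nuclear rescue.

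Slc32a1, the gene of the vesicular transporter, was 9.36 FPKM in control, 8.32 in knockdown, 8.55 in the cytoplasmic rescue and 10.7 in the nuclear rescue. Abat was 46.6 FPKM in control, 41.8 in knockdown, 37.8 in the cytoplasmic rescue and 42.3 in the nuclear rescue. Neither passed the test in the knockdown, with log2 fold changes of -0.17 for Slc32a1 and -0.16 for Abat (95% intervals -0.44 to 0.10 and -0.44 to 0.13, p = 0.214 and 0.279 before adjustment in the authors' deposited Cufflinks table). Gad2 lay 0.37 below Slc32a1 (95% interval of the difference -0.74 to 0.005) and 0.38 below Abat (-0.77 to 0.001), both intervals just including 0.

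The receptor side had the narrowest range of levels. Gabbr1 was 126 FPKM in control, 122 in knockdown, 123 in the cytoplasmic rescue and 126 in the nuclear rescue, so its highest group was 1.03 times its lowest. Gabbr2 was 39.1 FPKM in control, 36.7 in knockdown, 36.3 in the cytoplasmic rescue and 38.0 in the nuclear rescue, a range of 1.08 times. The scaffold gene Gphn was 64.9 FPKM in control, 64.7 in knockdown, 69.8 in the cytoplasmic rescue and 62.5 in the nuclear rescue. None of these genes was called in the knockdown, where the log2 fold changes of the authors' deposited table were -0.05 for Gabbr1, -0.09 for Gabbr2 and -0.004 for Gphn. Here the unadjusted interval of the difference from Gad2 left out 0 for each gene. The change of Gad2 was lower by 0.54 than that of Gphn (95% interval -0.93 to -0.14). It was lower by 0.49 than that of Gabbr1 (-0.94 to -0.05) and by 0.45 than that of Gabbr2 (-0.82 to -0.07). These intervals were not adjusted for the 6 genes set against Gad2. Gad2 was the reference as the called member with the lowest change in these same data, which favours large differences.

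**Figure D2:**
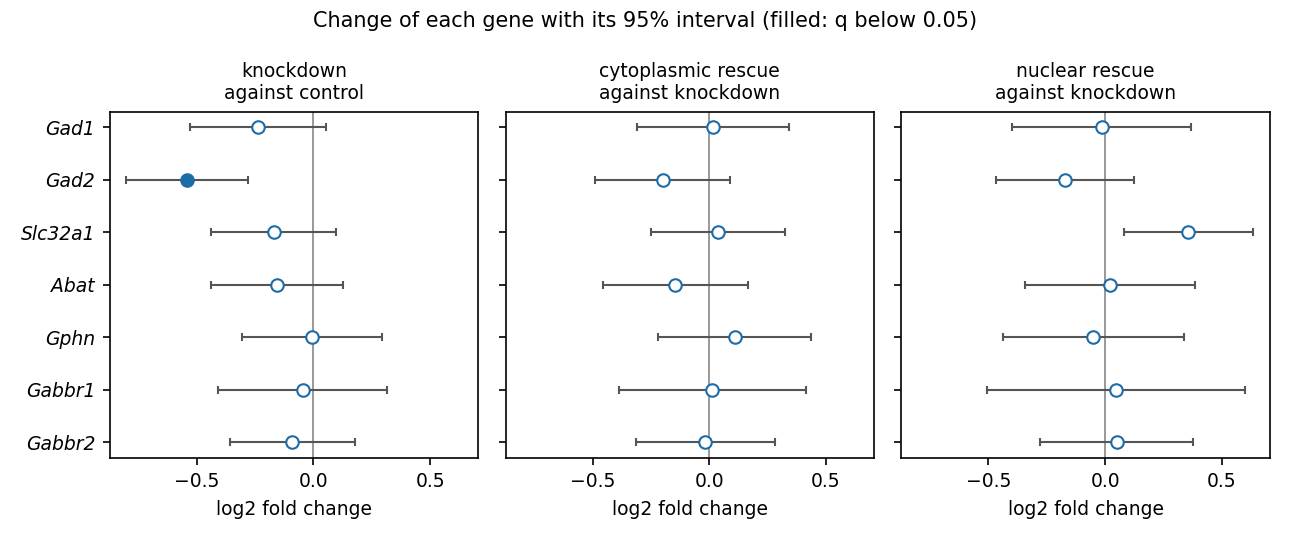
Log2 fold change of each gene (points) with the 95% interval from the implied error (bars), 1 panel per comparison, filled where q was below 0.05. Gad2 in the knockdown, at -0.54, is the filled point, and the interval of Slc32a1 in the nuclear rescue, 0.08 to 0.63, lies above 0 without passing q.

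Across the 7 genes the median log2 fold change in the knockdown was -0.16 and 7 of 7 lay below 0, against a median of 0.02 and 44.7% below 0 over all genes. For the 6 uncalled genes the smallest change that could have been called ranged from 0.47 for Gabbr2 to 0.64 for Gabbr1, and smaller changes were not detectable with these errors.

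In neither rescue was Gad2 back at the control level. From the knockdown, Gad2 changed by -0.20 on the log2 scale in the cytoplasmic rescue (95% interval -0.49 to 0.09) and by -0.17 in the nuclear rescue (-0.47 to 0.12), neither passing the test (p = 0.175 and 0.253 before adjustment in the authors' deposited Cufflinks tables). A return to control would be a rise of 0.54, which lies outside both intervals. The fall it would undo is itself an estimate (-0.54, 95% interval -0.80 to -0.28). Gad2 was picked as the called member, which favours a large fall here and in the sums below. Gad2 stood at 59.9% of control in the cytoplasmic rescue and 61.0% in the nuclear rescue. Adding the log2 changes of the knockdown and rescue tables with both errors puts the cytoplasmic rescue 0.74 below control (95% interval -1.13 to -0.35) and the nuclear rescue 0.71 below (-1.11 to -0.32). The knockdown error enters these sums more than once, which widens the intervals. The rescue comparisons share the knockdown samples with each other and with the comparison against control.

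The other members did not pass the test in either rescue. In the cytoplasmic rescue 0 of 7 were called, against 0.506% of all genes (0.333% higher and 0.173% lower), and the log2 fold changes ran from -0.20 (Gad2) to 0.11 (Gphn). With the nuclear isoform 0 of 7 were called, against 0.110% of all genes (0.0710% higher and 0.0387% lower), and the changes ran from -0.17 (Gad2) to 0.36 (Slc32a1). By an unadjusted p below 0.05, 0 of 7 passed in the cytoplasmic rescue, against 5.33% of all genes, and 1 of 7 in the nuclear rescue, against 1.05%. That gene was Slc32a1, which went from 8.32 to 10.7 FPKM, 114% of control, with a log2 fold change of 0.36 (95% interval 0.08 to 0.63, p = 0.0115, q = 0.378 in the authors' deposited Cufflinks table). Recomputed by Benjamini-Hochberg within the nuclear rescue comparison alone, the q of Slc32a1 was 0.99998. A change above that of Slc32a1 was found for 0.709% of genes with at least 1 FPKM in both groups. In the same table the change of Gad2 lay 0.53 below that of Slc32a1 (95% interval of the difference -0.94 to -0.12). These were the lowest and the highest of the 7 changes there, and the interval takes no account of that choice.

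No member passed a test between the nuclear and cytoplasmic rescues. The z test on their log2 fold changes, with Benjamini-Hochberg adjustment over all 15365 genes, called 0 of 7, against 0.0260% of all genes, and 0 of 7 had an unadjusted p below 0.05, against 122 of the 15365. The largest difference was that of Slc32a1, at 0.32 higher with the nuclear isoform (95% interval -0.08 to 0.72), and the smallest that of Gad2, at 0.03 (-0.39 to 0.44). The test counts the knockdown error in both tables and is conservative, so differences up to the ends of these intervals remain possible.

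No exon of the 7 genes stood in the deposited splicing tables. These list cassette exons that the authors called with SpliceTrap, 214 in the knockdown, 150 in the cytoplasmic and 318 in the nuclear comparison, each with a change of inclusion of at least 0.1. By gene symbol 0 of these exons belonged to the 7 genes, and by position 0 fell inside their loci. The exons came from 202, 146 and 292 genes, beside 15598, 15598 and 15489 genes in the expression tables. With so few genes listed, 0 of 7 says little about these members. Gphn and Gabbr1 are known for alternative splicing, but exons below the authors' threshold were not analysed here.

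Rbfox proteins read UGCAUG, and more weakly its core GCAUG, in RNA, and the cytoplasmic isoform is known to bind such sites in 3′ untranslated regions (UTRs). The annotated 3′ UTRs of the members were therefore searched for these letters on the transcript strand, in 1 GENCODE transcript per gene (GRCm38). The 6-letter motif TGCATG, which includes the 5-letter core GCATG, was found in 35.4% and the core in 58.9% of 10766 genes with at least 1 FPKM. Sites of both decarboxylases (2 of those in Gad2) and the 6-letter sites of the scaffold and GABA-B receptor genes are shown because these genes span the called and uncalled members. Capitals mark the motif or its core, and positions count nucleotides after the stop codon.
Gad2, position 2318: agccttgctcggGCATGcaaatcttctca
Gad2, position 2361: aaaggaggtacaTGCATGcccagtacttta
Gad1, position 287: tcctagaccataGCATGttgctcgtcccc
Gphn, position 27: agaaagttttgaTGCATGtccacatatcat
Gabbr1, position 642: cttgggtaggcgTGCATGatgtgttgagca
Gabbr1, position 1939: cttccctcttgcTGCATGgaagcttcaagg
Gabbr2, position 2404: ctcttgccccacTGCATGgtatcgattttt

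Gad2, the called member, has the longest 3′ UTR of the 7, with 3528 nt, and holds 1 TGCATG and 3 cores in all. Among 1194 genes with a 3′ UTR of similar length (0.8 to 1.25 times), 70.8% held TGCATG and 65.6% had at least as many cores. Gad1 has 1 core and no TGCATG in 1218 nt. Slc32a1 has neither in 744 nt, where 49.1% of genes of similar length held the core. Abat has 2 cores in 2942 nt. Gabbr1 has the most, 2 TGCATG and 5 cores in 2041 nt, a number of cores reached by 6.25% of genes of similar length. Gphn has 1 TGCATG in 856 nt and Gabbr2 1 TGCATG and 2 cores in 2479 nt. A match is a description of letters and does not show binding.

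**Figure D3:**
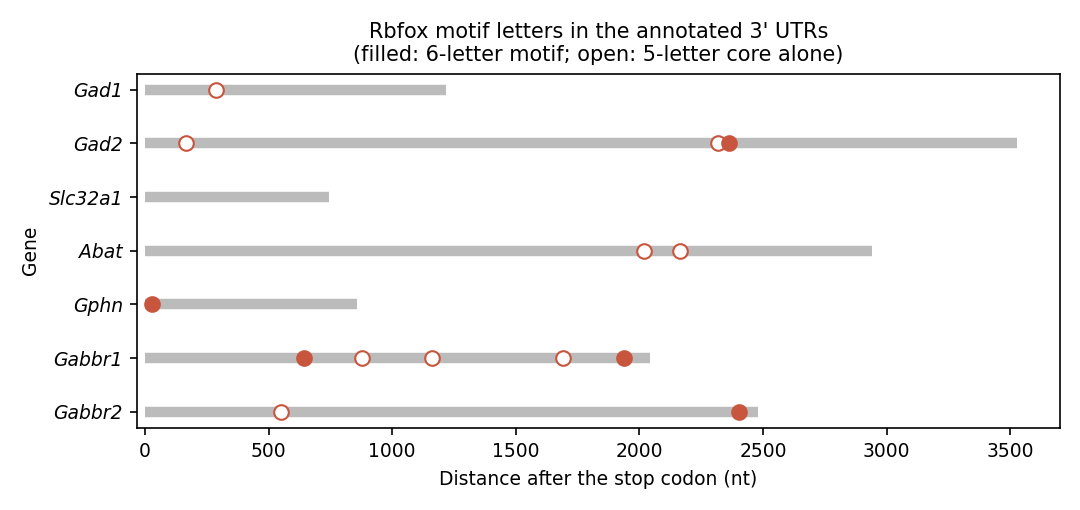
Annotated 3′ UTR of each gene (grey bar, length in nucleotides after the stop codon) with TGCATG (filled) and the core alone (open). Gabbr1 holds 5 matches and Slc32a1 none, and Gad2 has the longest bar with 3 matches.

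Genes around the members were taken from lists given by name. Over all genes 1.58% were called lower and 0.776% higher in the knockdown. In the list of GABA handling (uptake, breakdown and the glutamine supply) 0 of 14 were called in the knockdown, the median being 0.11 on the log2 scale and that of all genes 0.02. Glul, which encodes glutamine synthetase and is the most abundant of them, was 376 FPKM in control and 425 in knockdown. Among 30 other genes of the inhibitory postsynapse 0 were called (median -0.08), Gabarapl1 standing at 396 and 362 FPKM and Nsf at 250 and 226 FPKM. Among 14 GABA-A receptor subunits 2 fell and 0 rose (median -0.14). Gabrd, a subunit gene of extrasynaptic receptors, fell from 12.5 to 7.87 FPKM. Among 16 partners and effectors of the GABA-B receptor 2 fell and 0 rose (median -0.04). Both encode subunits of the inwardly rectifying potassium channels that GABA-B receptors open: Kcnj3 fell from 35.0 to 24.2 FPKM (log2 fold change -0.53, implied error 0.128, q = 0.00591) and Kcnj9 from 14.3 to 9.97 FPKM (-0.51, implied error 0.130, q = 0.0104), in the authors' deposited table. The receptor subunit genes themselves were at -0.05 and -0.09. In the rescues 0 genes of these 4 lists were called, against 0.506% of all genes in the cytoplasmic and 0.110% in the nuclear rescue. With the cytoplasmic isoform Kcnj3 was 29.5 FPKM and Kcnj9 9.76 FPKM, and with the nuclear isoform they were 28.4 and 9.32 FPKM.

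**Figure D4:**
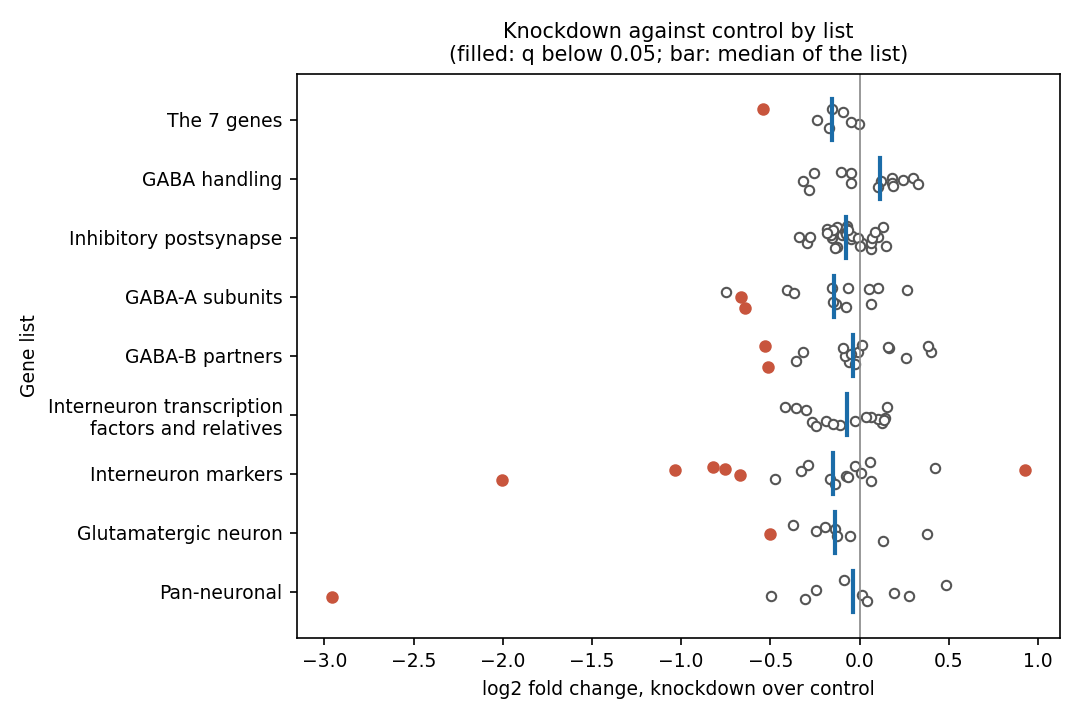
Log2 fold change of knockdown over control for the 7 genes and for genes of 8 lists, filled where q was below 0.05, with the list median as a vertical bar (vertical position within a row has no meaning). Gad2, at -0.54, is the filled point of the 7, and the interneuron markers spread from Npy, at the low end, to Calb2 at 0.93. The filled pan-neuronal point, at -2.96, is Rbfox3, a target of the siRNA.

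Genes listed as interneuron markers moved in part beside Gad2. Whether inhibitory neurons alone make them in these cultures cannot be told from bulk RNA. Of 18 interneuron markers 5 fell and 1 rose in the knockdown (median -0.15), against 1.58% lower and 0.776% higher of all genes. The summed FPKM of the 18 was 667 in control and 522 in knockdown. Npy, Cck, Tac1, Vip and 6330527O06Rik (Lamp5 in current naming) fell and Calb2 rose. Npy, a neuropeptide gene, went from 155 to 38.6 FPKM and Calb2, which encodes calretinin, from 90.1 to 171 FPKM. Cck went from 194 to 122 FPKM, and Npy, Calb2 and Cck moved the sum most. From the knockdown, 2 of the 18 rose in the cytoplasmic rescue (Npy and 6330527O06Rik), against 0.333% of all genes. In the nuclear rescue 1 rose (6330527O06Rik), against 0.0710% of all genes. The summed level of the 18 markers was 511 FPKM in the cytoplasmic and 506 in the nuclear rescue. Among 16 genes of interneuron specification, which include the transcription factors that define the lineage, 0 were called (median -0.07) and the sum was 39.5 FPKM in control, 40.6 in knockdown, 35.8 in the cytoplasmic and 39.7 in the nuclear rescue. Sox6 was 7.17 and 7.36 FPKM in control and knockdown, and Erbb4 6.92 and 7.54 FPKM. Lhx6, Sst and Pvalb, named after their values were seen, went from 4.99 to 5.52, from 23.6 to 17.0 and from 5.23 to 4.67 FPKM, none of them called. Of 9 glutamatergic markers 1 fell, Neurod2 (8.91 to 6.30 FPKM), with a summed level of 368 FPKM in control and 340 in knockdown. The part of cell composition in the fall of Gad2 was not tested.

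The genes whose FPKM ran most like that of Gad2 over the 4 groups were Sult2b1, Tgfb2 and Ddah1. Likeness was the Euclidean distance of log2(FPKM + 1) relative to the knockdown over 3 values, among 8299 other genes with at least 5 FPKM in every group, and was 0.050, 0.082 and 0.095. Sult2b1, a sulfotransferase gene, was 9.47, 6.49, 5.75 and 5.62 FPKM in control, knockdown, cytoplasmic and nuclear rescue. Gad1 ran most like Tmem22, Pigp and Oaz1 (0.009, 0.013 and 0.020). Slc32a1 ran most like Atp6v0c, a subunit gene of the vesicular proton pump, at 142, 127, 128 and 160 FPKM in the same order (distance 0.026), then 2010204K13Rik and Snord35a. These distances describe 4 group values per gene and carry no test.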

How the data were processed

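The authors' tables were made with CASAVA and Cufflinks on the mouse build mm9, per the submitters' processing notes, with versions not given in the sources used here. Ribosomal RNA was removed and libraries carried no strand information, per the labels' protocols, so reads of antisense transcripts are not separated. The 3 deposited expression tables hold FPKM per group, a score per gene (log2 fold change and test statistic), and the authors' p-value and q-value. The 3 deposited splicing tables hold an inclusion fraction per group for cassette exons. Another 78 value columns of these, junction reads included, were not used, because no exon belonged to the genes described and the planned exon test had nothing to run on.

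The deposited log2 fold change equalled that from the FPKM within 2.498e-04, and the p-value was the two-sided normal tail of the statistic, from which the implied error was taken. Fits on values per library were planned if such values were present, and could not be made. Genes with a group at 0 carry a placeholder fold change and were left out of medians. Intervals are 95% normal intervals. Both rescues were set against each other with a z test, checked on simulated data. Calls were made at q below 0.05. The deposited q-values are not those of Benjamini-Hochberg within a table, which calls 481 genes in the knockdown. In the cytoplasmic and nuclear rescues it calls 49 and 13. The smallest statistic called was close across the tables (3.46, 3.46 and 3.51), so the deposited adjustment may have spanned them. Alternatives were q below 0.01, q recomputed within a table, a minimum of 1 FPKM, pseudocounts of 1 and 0.1, median centring and, for the rescues, the larger error alone.

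Named were the 7 members, the Rbfox genes, list members called in any table, the 2 most abundant of lists without a call, and the 3 genes nearest in pattern to Gad2, Gad1 and Slc32a1. The members and lists were chosen with earlier results of these data known. List names were matched through RefSeq synonyms (GRCm38). The 3′ UTRs came from GENCODE M21, taking the principal transcript with the longest 3′ UTR, a search added after the values were seen. A planned motif count in promoters was not made. A few items that this rule names are not reported here. Python 3.11.15, pandas 2.3.3 and scipy 1.17.1 were used.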

Additional observations from a re-analysis of the deposited data

How the results depend on the processing

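The fall of Gad2 in the knockdown was called under all 6 alternatives. It lay near the cutoff at q below 0.01 (q = 0.00813 in the authors' deposited Cufflinks table). Its log2(FPKM + 1) change was -0.51, where a move of 0.5 was required. The 0 calls in the other member and comparison pairs held, so that 126 of 126 member values stayed on their side of the threshold. The stricter q and the pseudocounts reuse the deposited q-values, so an uncalled member could not become called under them. The sign was kept in 125, but only centring on the median could change it. The exception among the 21 pairs of member and comparison was Gabbr2 in the cytoplasmic rescue, at -0.02 and, centred, 0.04. Counts over all genes moved more. In the knockdown 367 became 238 at q below 0.01 and 217 when log2(FPKM + 1) had to move by 0.5. In the cytoplasmic rescue 79 became 41 at q below 0.01, 49 with q recomputed within the table and 48 when log2(FPKM + 1) had to move by 0.5. In the nuclear rescue 17 became 11 with at least 1 FPKM and q recomputed. Between the rescues 4 became 26 with the larger error alone, still with 0 of 7 members. Centring on the median needs recomputed q-values. The share of higher calls in the cytoplasmic rescue was 65.8%, 71.4% with q recomputed and 83.6% with centring as well. In the nuclear rescue it was 64.7%, and 53.8% of 13 calls with q recomputed, both without and with centring. No paired analysis was possible because the tables hold 1 value per group, and for the same reason no replicate could be left out. The errors limit the uncalled members: changes under 0.47 to 0.64 in the knockdown, 0.50 to 0.71 in the cytoplasmic and 0.50 to 0.99 in the nuclear comparison could not have been called.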

Other observations

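Other lists of inhibitory signalling held no calls. Over all genes 2.35% were called in the knockdown, 0.506% in the cytoplasmic and 0.110% in the nuclear rescue. Of 4 glycine receptor and transporter genes 0 passed in the 3 comparisons, Glrb being 49.6 FPKM in control and 47.5 in knockdown and Glra2 37.9 and 38.5 FPKM. Of 5 genes of chloride transport, which sets the direction of the GABA-A current, 0 passed: Slc12a5, the neuronal chloride extruder, was 29.3 FPKM in control, 29.1 in knockdown, 33.5 in the cytoplasmic and 31.6 in the nuclear rescue, and Slc4a3 was 26.6, 29.5, 26.9 and 26.6 FPKM.

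Markers of other cells in the culture were measured in the same tables, where 1.58% of all genes were called lower and 0.776% higher in the knockdown. In the knockdown 3 of 12 oligodendrocyte lineage markers rose and 1 fell, 3 of 9 microglia markers fell, 1 of 6 hippocampal markers fell (Dkk3, 32.4 to 23.7 FPKM), and 0 of 8 vascular and 0 of 10 astrocyte markers were called. Their summed FPKM in control and knockdown was 282 and 298 for the oligodendrocyte lineage, 10.9 and 6.35 for microglia and 61.6 and 74.1 for vascular cells. Their part in the fall of Gad2 was not tested.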
